A study of Prunus armeniaca and Prunus mume with 8 samples.

Results

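The genes described here belong to phenylpropanoid metabolism and were measured in fruit of 2 stone fruit species, the Japanese apricot Prunus mume and the apricot Prunus armeniaca. They are the 6 probes, of 10384 non-control probes on the array, whose deposited description names an enzyme of the route: 2 phenylalanine ammonia-lyases, 1 chalcone synthase, 2 cinnamoyl-CoA reductases and 1 caffeic O-methyltransferase. The word search also covered other flavonoid enzymes, anthocyanin, cinnamyl alcohol dehydrogenase and laccase, and it met none of them. Descriptions exist for 658 probes, and all of these stand in lists in which the authors gathered probes that differed at least 2-fold between cultivars or species of this series. The 6 probes were therefore chosen by the same contrasts that are described below, so their differences are given as a description, with nothing resting on them.

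Fruit RNA was hybridised to 8 one-colour Agilent arrays of 1 slide, each with a single Cy3-labelled sample. Prunus mume was represented by the cultivars Ruantiaohongmei and Xiyeqing and Prunus armeniaca by Manao and Zhenkui. Each cultivar had 2 arrays, and the labels name no treatment. The labels call every sample mixed stages, and the fruit sampled ran through stages 1 to 8, from week 3 to week 13 past full bloom. Which stages went onto a given array is not said, and neither is whether a cultivar's 2 arrays represent different trees. A standard error or p-value therefore covers only how far these samples lie apart, and that spread may be technical. The series title asks which genes of fruit development differ between the species.

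Phenylalanine ammonia-lyase (PAL) removes the amino group of phenylalanine and opens the route to all phenylpropanoids. Chalcone synthase draws the pathway's CoA esters into flavonoids, which in stone fruit include anthocyanins, flavonols and the units of condensed tannins. Cinnamoyl-CoA reductase commits them to monolignols, the building blocks of lignin, and caffeic acid O-methyltransferase adds methyl groups to lignin precursors; in stone fruit the hardening stone is the lignified tissue.

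Levels are log2 signals from which each array's 75th percentile was subtracted. A level of 0 is thus a spot at that percentile, and no probe's level can be compared with another's. How well a probe matches each species or cultivar was not tested, so weaker match and less RNA cannot be told apart. Detection was lowest on Ruantiaohongmei replicate 2, with 7807 probes well above background, while the other arrays had between 8500 and 8982. Each of the 6 probes had 1 spot, which was well above background on all 8 arrays, never saturated and never marked as an outlier. Of 42 described probes with names known from fruit (expansins, galactosidases, ACC oxidases, allergens, polygalacturonases and their inhibitors), 36 were well above background on all 8 arrays, as were all 3 probes with leaf names, while the single oleosin, a seed protein, was not. A probe was called when the adjusted p of limma fell under 0.05 over the 9125 tested probes (Benjamini-Hochberg).

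Both PAL probes were lower in P. mume than in P. armeniaca. Probe EF031063.1, designed on a P. armeniaca PAL, had levels of 1.85 and 2.48 in Ruantiaohongmei and 2.64 and 2.26 in Xiyeqing, against 3.29 and 4.09 in Manao and 4.09 and 5.34 in Zhenkui. All 4 P. mume arrays thus lay below all 4 P. armeniaca arrays. The means were 2.31 ± 0.34 in P. mume and 4.20 ± 0.84 in P. armeniaca (SD, n = 4 each), a difference of -1.90 ± 0.40 (SE), or 3.72-fold lower in P. mume. In a bulk sample, fewer cells of a type and less RNA per cell cannot be told apart.

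PAL1, on probe AF036948.1 from sweet cherry (P. avium), showed the same order of species. Its levels were 2.89 and 3.74 in Ruantiaohongmei and 3.42 and 3.37 in Xiyeqing, against 3.87 and 4.70 in Manao and 4.70 and 5.92 in Zhenkui. The groups did not overlap, although Ruantiaohongmei replicate 2 came close to Manao replicate 1. The means of 3.36 ± 0.35 in P. mume and 4.80 ± 0.84 in P. armeniaca (SD, n = 4 each) differed by -1.44 ± 0.41 (SE), a 2.71-fold lower level in P. mume. Limma called both PAL probes between the species. The call of PAL1 was lost without Ruantiaohongmei replicate 1 (adjusted p = 0.0723), without Xiyeqing replicate 1 (0.0561) and without Xiyeqing replicate 2 (0.0552).

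Within slide rows the PAL differences were larger for one pair of cultivars than for the other. In slide row 2, Xiyeqing stood below Zhenkui by -2.26 ± 0.47 (SE) for EF031063.1 and by -1.91 ± 0.49 for PAL1, AF036948.1, and both were called. In slide row 1, Ruantiaohongmei stood below Manao by -1.53 ± 0.47 and by -0.97 ± 0.49, and neither was called. The PAL1 difference was -0.55 without Ruantiaohongmei replicate 1 and also -0.55 without Manao replicate 2. The difference between these contrasts was 0.73 ± 0.67 (SE) for EF031063.1 and 0.94 ± 0.69 for PAL1, and was called for neither, so a different PAL gap in the 2 pairs was not shown. The calls in row 2 rested on few arrays: without Zhenkui replicate 2 they were lost (differences -1.64 and -1.30, adjusted p = 0.0615 and 0.12). Without Xiyeqing replicate 2 they were lost as well (adjusted p = 0.0785 and 0.108), and PAL1 was also lost without Xiyeqing replicate 1 (0.0825). In row 1, EF031063.1 was called with normexp background correction (adjusted p = 0.0402) and with trend and robust moderation (0.0479). It was also called without either Zhenkui array, with the difference unchanged at -1.53. Those settings take the gap between the Zhenkui arrays out of the spread that the cultivars share.

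The PAL levels ran in the order Zhenkui, Manao, Xiyeqing, Ruantiaohongmei for both probes. Xiyeqing and Ruantiaohongmei, the lowest pair, were within the spread between arrays of a cultivar: Ruantiaohongmei minus Xiyeqing was -0.29 ± 0.47 (SE) for EF031063.1 and -0.08 ± 0.49 for PAL1. Manao minus Zhenkui was -1.02 ± 0.47 for EF031063.1 and -1.02 ± 0.49 for PAL1, with overlapping arrays and no call. Without Zhenkui replicate 2 these were -0.39 and -0.41, without Zhenkui replicate 1 -1.64 and -1.63, and without Manao replicate 1 -0.62 and -0.60.

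The 2 PAL probes also moved together between arrays of a cultivar. Replicate 2 minus replicate 1 was 0.63 for EF031063.1 and 0.84 for PAL1 in Ruantiaohongmei, where the median size of this gap over all tested probes was 0.34. In Manao the gaps were 0.80 and 0.84 against a median of 0.18, and in Zhenkui 1.25 and 1.22 against a median of 0.32. Only in Xiyeqing were they small or of the other sign, at -0.38 and -0.05 with a median of 0.34. Of the 9125 tested probes, 372 in Zhenkui had a gap at least as large as that of EF031063.1 and 397 one as large as that of PAL1, so both PAL probes were among the less repeatable ones there. Pearson's measure of likeness between the 2 PAL probes was 0.98 over the 8 arrays. It is a description, because the arrays fall into 4 cultivars and the 2 probes may share target sequence. Probe sequences were not used here, so signal of one PAL gene on both probes was not tested.

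**Figure D1:**
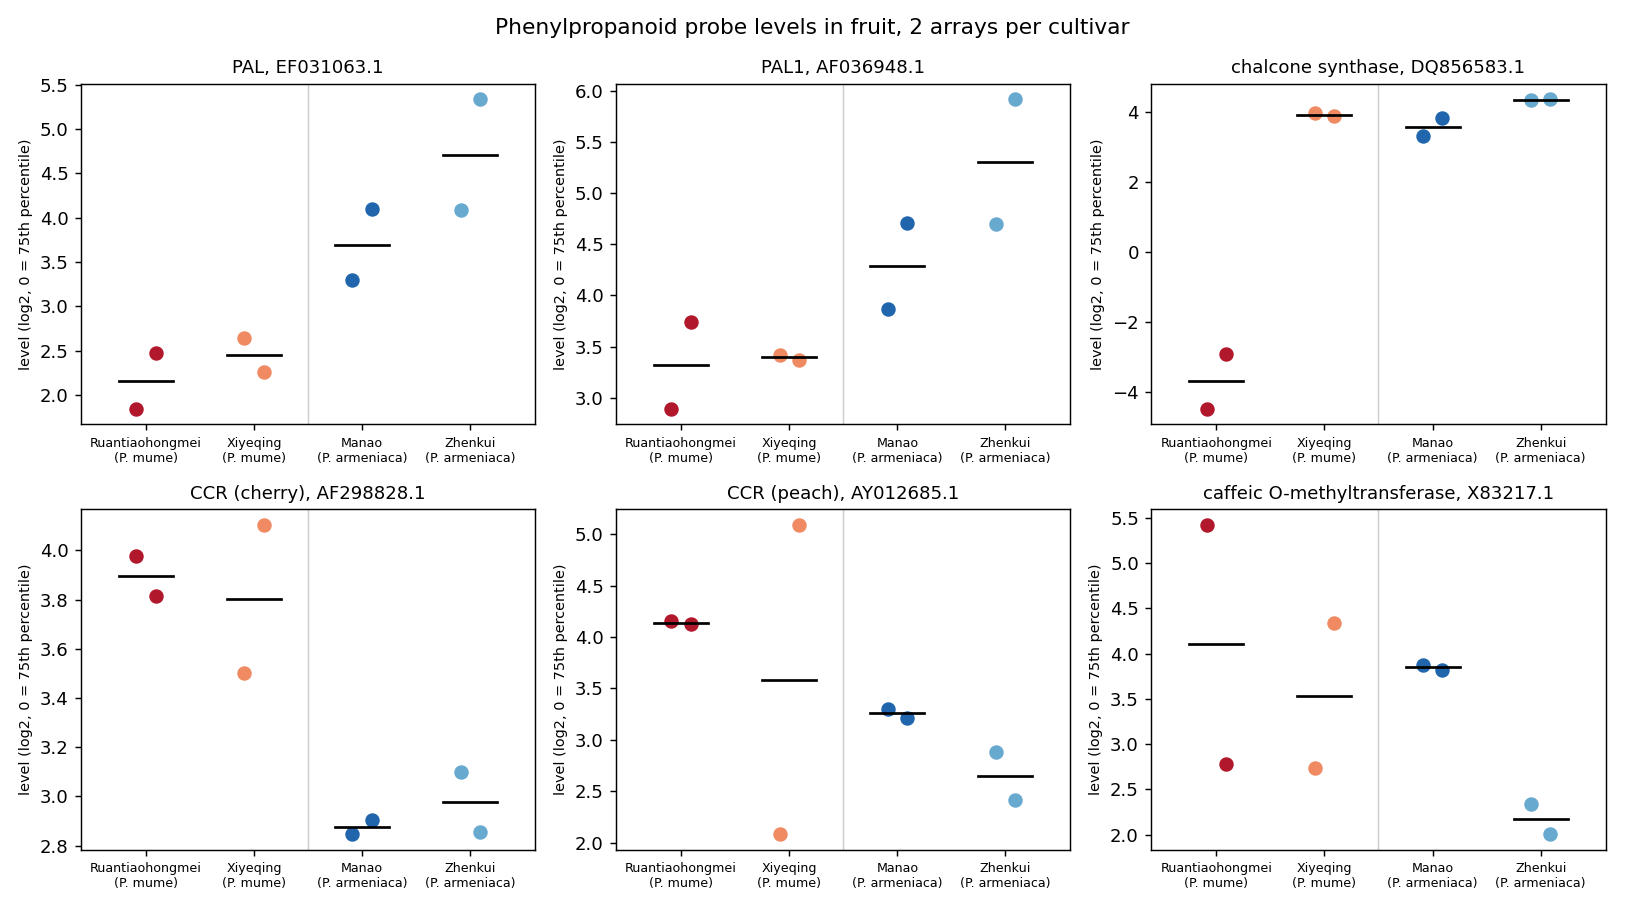
Level of each of the 6 probes (log2, 0 is the array's 75th percentile; the vertical scale differs between panels) on both arrays of Ruantiaohongmei and Xiyeqing (P. mume) and of Manao and Zhenkui (P. armeniaca); points are arrays, with replicate 1 on the left, and black lines are the mean of 2 arrays. Both PAL probes are lower on every P. mume array, chalcone synthase is low only on the Ruantiaohongmei arrays (-4.47 and -2.92), and the cherry cinnamoyl-CoA reductase is higher on every P. mume array.

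Chalcone synthase separated 1 cultivar from the other three rather than the species. Probe DQ856583.1, from cherry plum (P. cerasifera), had levels of -4.47 and -2.92 in Ruantiaohongmei and 3.96 and 3.86 in Xiyeqing, against 3.31 and 3.82 in Manao and 4.32 and 4.36 in Zhenkui. Both Ruantiaohongmei arrays were far below the other 6, and the Xiyeqing arrays lay inside the range of P. armeniaca. In the processed signal, before scaling, the Ruantiaohongmei arrays read 19.4 and 59.6, against 8525 and 6706 in Xiyeqing, 6382 and 8611 in Manao and 11304 and 8489 in Zhenkui. The Ruantiaohongmei spots were still 2.37 and 4.16 times as bright as their local background, so the probe was dim there but detected.

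Between the P. mume cultivars, chalcone synthase differed by -7.60 ± 0.47 (SE), 195-fold lower in Ruantiaohongmei than in Xiyeqing. Ruantiaohongmei was also 153-fold lower than Manao (-7.26 ± 0.47) and 262-fold lower than Zhenkui (-8.04 ± 0.47). These 3 differences share the same 2 Ruantiaohongmei arrays. The call against Xiyeqing and that against Manao held in all 10 other settings that kept every array and in all 8 that left out 1 array. With normexp background correction, which adds an offset of 50 to every signal, they were smaller, at -6.00 against Xiyeqing and -5.72 against Manao. Among the other three cultivars no pair was called: Xiyeqing minus Zhenkui was -0.43 ± 0.47, Xiyeqing minus Manao 0.34 ± 0.47 and Manao minus Zhenkui -0.77 ± 0.47.

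The species means of chalcone synthase averaged over this split. They were 0.11 ± 4.44 in P. mume and 3.95 ± 0.49 in P. armeniaca (SD, n = 4 each), and the difference of -3.85 ± 1.80 (SE) was not called. It was called in 1 alternative, with slide row as a fixed block in place of cultivar (adjusted p = 0.0361). Of the total sum of squares over the 8 arrays, 65.4% lay between cultivars of a species, 33.1% between species and 1.49% within cultivars. The medians of the same shares over all tested probes were 15.1%, 46.4% and 27.0%. The small share within cultivars is relative to a large total and does not mean that the Ruantiaohongmei arrays lay close. Ruantiaohongmei and Manao shared slide row 1, and Xiyeqing and Zhenkui row 2, so between P. mume cultivars row and cultivar cannot be told apart.

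**Figure D2:**
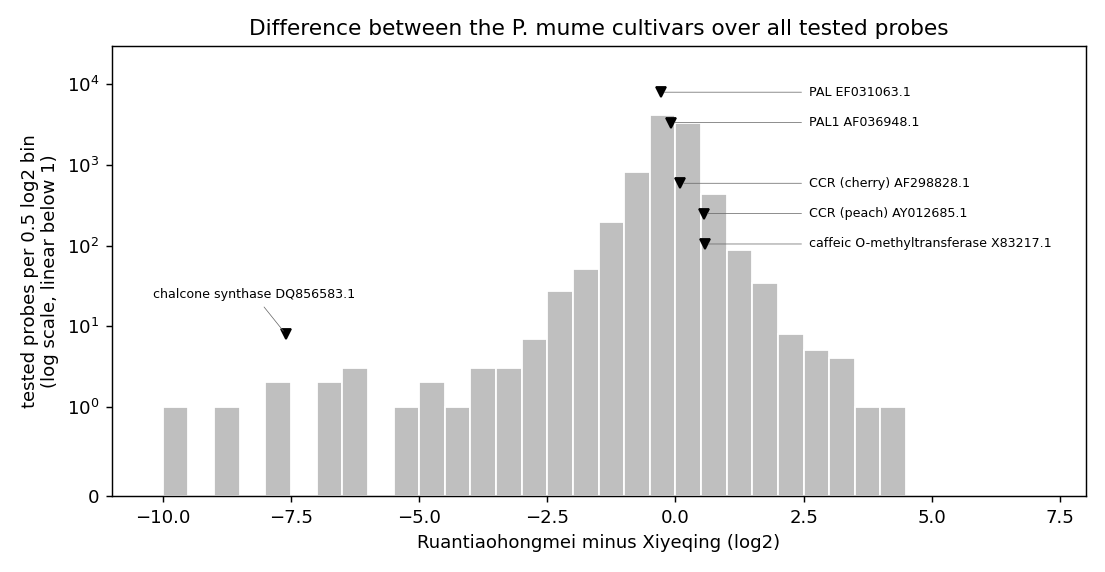
Difference between Ruantiaohongmei and Xiyeqing (log2, horizontal axis) over all 9125 tested probes, as the number of probes per bin on a log scale that is linear below 1; triangles mark the 6 phenylpropanoid probes by their difference, and the height of a triangle carries no value. Chalcone synthase lies at -7.60, while the other 5 probes lie between -0.29 and 0.57.

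Most of the array did not show such a split. Ruantiaohongmei and Xiyeqing differed by less than 1 log2 unit for 95.2% of tested probes, and 25 probes differed by 3 or more. By size the chalcone synthase difference ranked 4 among the 9125. When probes were ordered by the gap between the higher Ruantiaohongmei array and the lowest of the other 6, chalcone synthase came first, with a gap of 6.23. That ordering was made after the levels had been seen.

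Only 4 probes had a gap of at least 5 below all other arrays in Ruantiaohongmei, and none had one in Manao or Zhenkui or below the other arrays in Xiyeqing. Beside chalcone synthase they were an apricot fruit EST (CB819802.1, gap 6.14), inosine-5'-monophosphate dehydrogenase, a purine synthesis enzyme (AF068844.1, 6.14), and a contig without description (Contig1397, 5.97). AF068844.1 and Contig1397 ran almost identically over the arrays, so they are not separate observations if they bind the same transcript. The EST probe was not well above background on either Ruantiaohongmei array, so its level there is only a bound. In the direction above all other arrays, 6 probes had such a gap in Xiyeqing and none in Ruantiaohongmei. The Ruantiaohongmei arrays had 75th percentiles of 8.75 and 8.82 on the log2 scale, and those of the other 6 arrays ran between 8.70 and 9.33. The Ruantiaohongmei arrays had 8542 and 7807 probes well above background, against 8500 to 8982 on the others. Their lowest levels well above background were -5.41 and -4.78, against -5.77 to -5.27 on the others. Whether such differences between arrays enter the gaps was not tested.

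**Figure D3:**
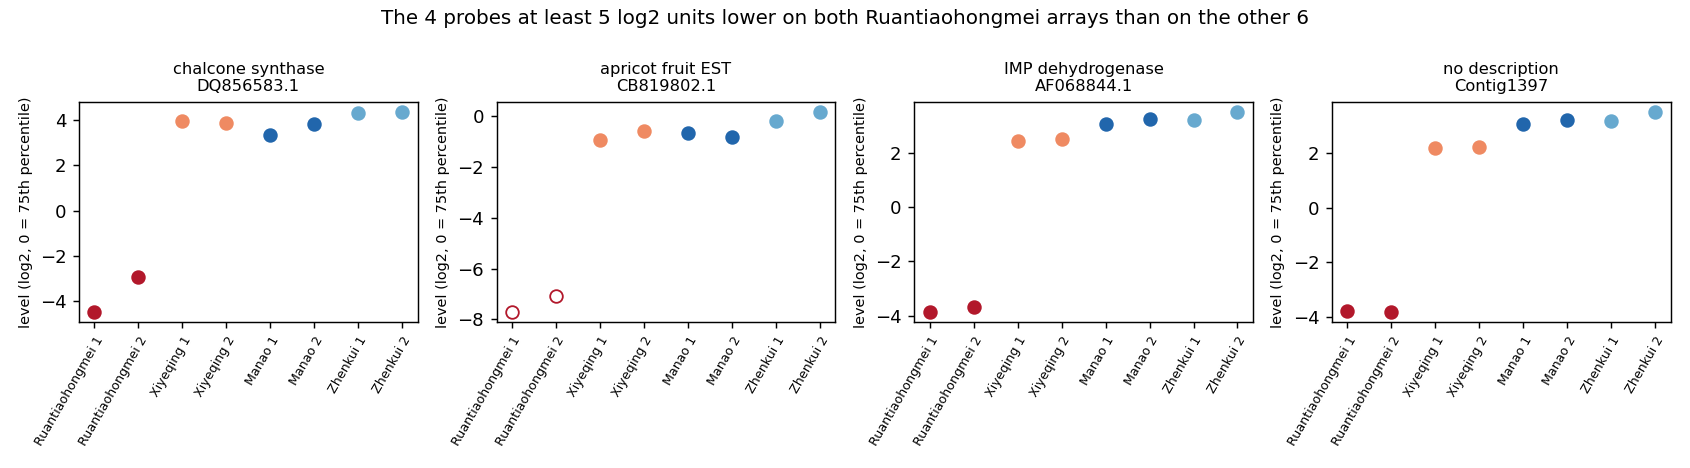
Levels (log2, 0 is the array's 75th percentile; the vertical scale differs between panels) on the 8 arrays of the 4 probes that were at least 5 log2 units lower on both Ruantiaohongmei arrays than on each of the other 6; open points were not well above background. Chalcone synthase is lower by a gap of 6.23, and the inosine-5'-monophosphate dehydrogenase probe by 6.14.

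Cinnamoyl-CoA reductase was higher in P. mume on the probe from sweet cherry. AF298828.1 had levels of 3.98 and 3.82 in Ruantiaohongmei and 3.50 and 4.10 in Xiyeqing, against 2.85 and 2.90 in Manao and 3.10 and 2.86 in Zhenkui. Every P. mume array lay above every P. armeniaca array. The means were 3.85 ± 0.26 in P. mume and 2.93 ± 0.12 in P. armeniaca (SD, n = 4 each), a difference of 0.92 ± 0.18 (SE) and 1.90-fold higher in P. mume. The call between species held in all 13 other settings with every array and in all 8 with 1 array left out.

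Both slide rows gave this probe a similar difference. Ruantiaohongmei exceeded Manao by 1.02 ± 0.25 (SE) and Xiyeqing exceeded Zhenkui by 0.83 ± 0.25, and both were called. The difference between the contrasts was 0.20 ± 0.36. The row calls are less firm than the species call: that of row 1 was lost without any 1 Ruantiaohongmei or Manao array (highest adjusted p = 0.167). The call of row 2 was lost in 7 of the 8 settings with 1 array left out, all but that without Xiyeqing replicate 1 (up to 0.198, with a difference of 0.52 without Xiyeqing replicate 2). It was also lost with median scaling (0.0646) and without a filter on dim probes (0.0622). Within species the cultivars of AF298828.1 were close, at 0.09 ± 0.25 for Ruantiaohongmei minus Xiyeqing and -0.10 ± 0.25 for Manao minus Zhenkui. Of its sum of squares, 87.5% lay between species and 1.00% between cultivars of a species.

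The second cinnamoyl-CoA reductase probe, AY012685.1 from peach (P. persica), was not called in any comparison with all arrays. It had levels of 4.15 and 4.13 in Ruantiaohongmei and 2.08 and 5.09 in Xiyeqing, against 3.30 and 3.21 in Manao and 2.88 and 2.41 in Zhenkui. The Xiyeqing arrays were the lowest and the highest of all 8, so the species overlapped. The means of 3.86 ± 1.27 in P. mume and 2.95 ± 0.40 in P. armeniaca (SD, n = 4 each) differed by 0.91 ± 0.59 (SE), beside 0.92 ± 0.18 on the cherry probe. Without Xiyeqing replicate 1 the difference was 1.54 and was called (adjusted p = 0.0102), and without Xiyeqing replicate 2 it was 0.43 (0.564).

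That spread within Xiyeqing was rare on these arrays. The 2 Xiyeqing arrays differed by 3.01 on the peach probe, AY012685.1, and 94 of the 9125 tested probes differed there by as much. Within cultivars lay 66.5% of its sum of squares, against a median of 27.0% over all tested probes. Xiyeqing replicate 2 was also the higher of the pair on the cherry probe, by 0.60. Against Zhenkui, the Xiyeqing difference of the peach probe was 0.94 ± 0.83 (SE). It ran from -0.57 without Xiyeqing replicate 2 to 2.44 without replicate 1, where it was called on 1 Xiyeqing array. Against Manao, Ruantiaohongmei was 0.88 ± 0.83 higher with no overlap, and this was not called. It was called when either Xiyeqing array was left out, with the difference unchanged at 0.88. Both settings take the gap of 3.01 out of the spread that the cultivars share.

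Caffeic O-methyltransferase, on probe X83217.1 from almond (named P. amygdalus in the description), was lowest in Zhenkui, but no difference on it was called. Of its sum of squares, 52.0% lay within cultivars, against a median of 27.0% over all tested probes. Its levels were 5.42 and 2.78 in Ruantiaohongmei and 2.73 and 4.33 in Xiyeqing, against 3.88 and 3.82 in Manao and 2.33 and 2.00 in Zhenkui. Both Zhenkui arrays were below the other 6, and the Manao arrays lay between those of the P. mume cultivars. The species means were 3.82 ± 1.30 in P. mume and 3.01 ± 0.98 in P. armeniaca (SD, n = 4 each), a difference of 0.81 ± 0.70 (SE) that was not called. Without Ruantiaohongmei replicate 1 it was 0.24 and without replicate 2 it was 1.23.

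Differences between single cultivars on this probe were not called either. Manao exceeded Zhenkui by 1.68 ± 0.84 (SE) and Ruantiaohongmei exceeded it by 1.93 ± 0.84. Xiyeqing exceeded Zhenkui by 1.36 ± 0.84 (0.56 without Xiyeqing replicate 2 and 2.16 without replicate 1). Ruantiaohongmei minus Manao was 0.26 ± 0.84. The last of these turned to -1.06 without Ruantiaohongmei replicate 1 and was 1.57 without replicate 2. Gaps between arrays were wide in both P. mume cultivars: replicate 2 minus replicate 1 was -2.64 in Ruantiaohongmei, a gap that 69 tested probes matched in size, and 1.60 in Xiyeqing, matched by 286. In Manao it was -0.06 and in Zhenkui -0.33.

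**Figure D4:**
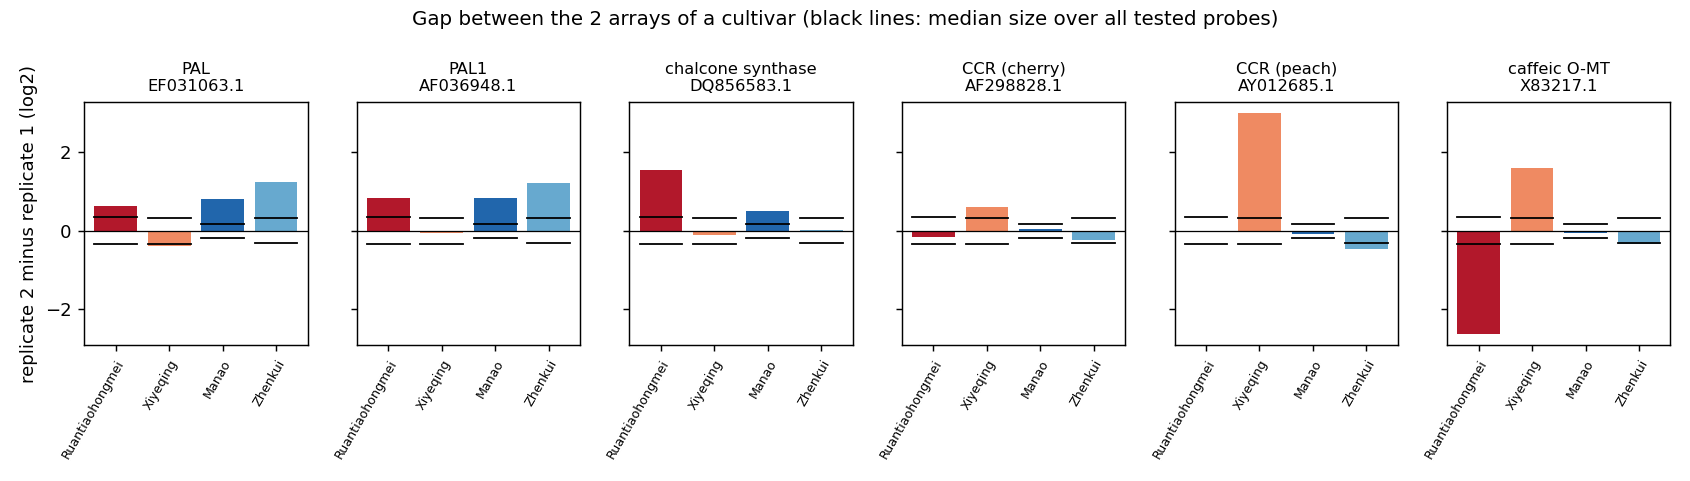
Replicate 2 minus replicate 1 (log2) for each of the 6 probes in Ruantiaohongmei, Xiyeqing, Manao and Zhenkui; black lines mark the median size of this gap over all tested probes in both directions. The PAL probes share their gaps, the peach cinnamoyl-CoA reductase has a gap of 3.01 in Xiyeqing, and caffeic O-methyltransferase one of -2.64 in Ruantiaohongmei.

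Counted together, 3 of the 6 probes were called between the species, while 36.7% of the 9125 tested probes were called. Of the 6, 1 was called higher in P. mume, against 15.1% of all tested probes, and 2 were called lower, against 21.6%. Arrays of the species did not overlap for 3 of the 6, against 39.9% of all tested probes. The median difference was -0.32 over the 6 probes and -0.11 over all tested probes. Because the 6 entered through these contrasts, the counts say nothing about the pathway as a whole.

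Between cultivars of different species, the counts were 2 of 6 for Ruantiaohongmei against Manao (21.6% of all tested probes called) and 3 of 6 for Xiyeqing against Zhenkui (27.8%). They were 4 of 6 for Ruantiaohongmei against Zhenkui (34.6%) and 1 of 6, the cherry cinnamoyl-CoA reductase, for Xiyeqing against Manao (15.8%). For Ruantiaohongmei against Xiyeqing 1 of 6 was called, chalcone synthase, where 0.592% of all tested probes were called, 54 in number. For Manao against Zhenkui limma called 0 of 6 and 0% of all tested probes; at an unadjusted p under 0.05 it was 0 of 6 and 1022 of 9125 probes (11.2%).

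**Figure D5:**
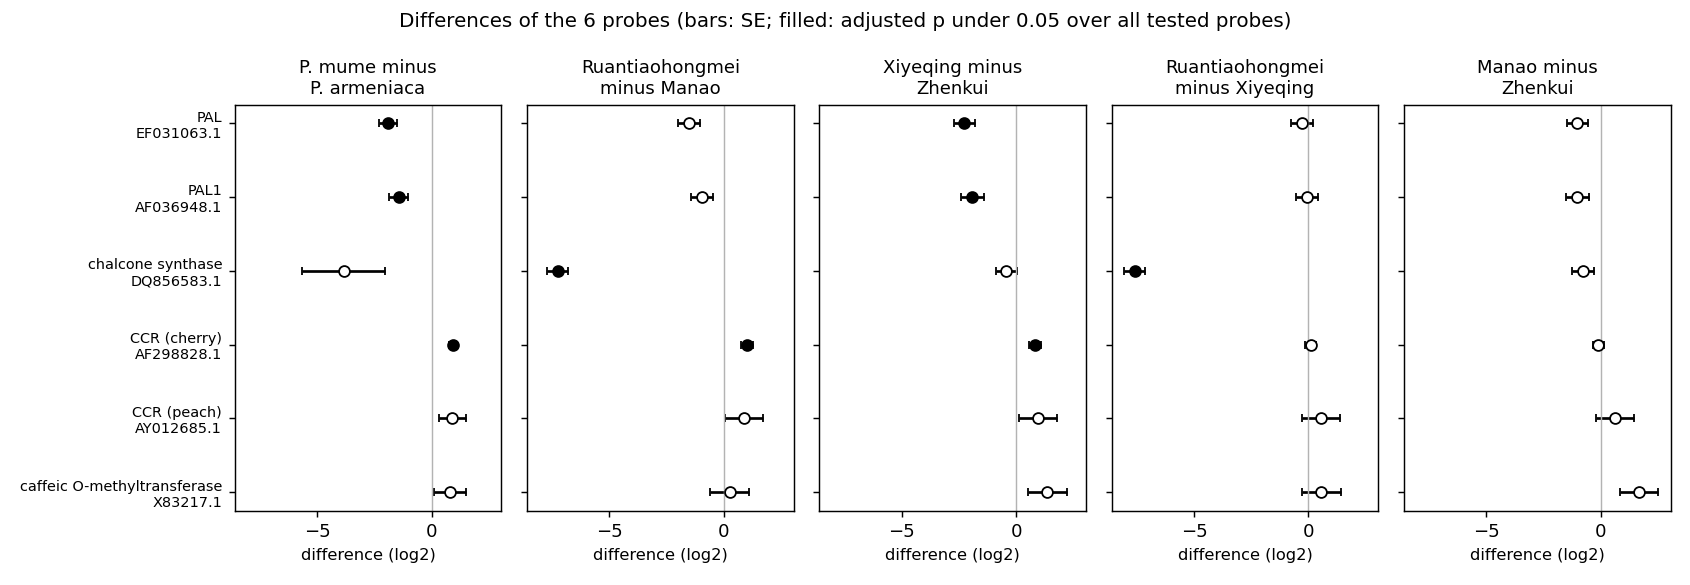
Difference of each of the 6 probes (log2, with bars for the standard error) for P. mume minus P. armeniaca and for 4 pairs of cultivars; filled points were called by limma over all tested probes. The 2 PAL probes lie left of 0 and the cherry cinnamoyl-CoA reductase right of 0 in the 3 comparisons across species, and chalcone synthase is at -7.26 and -7.60 where Ruantiaohongmei is compared with Manao and with Xiyeqing.

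In the authors' deposited tables, the 6 probes could appear in 7 lists, 1 for the species and 6 for pairs of cultivars. Of these 42 places 20 were filled. By the authors' deposited tables, chalcone synthase stood in 4 lists, the PAL probe EF031063.1 in 5, PAL1 in 3, the cherry cinnamoyl-CoA reductase in 4, caffeic O-methyltransferase in 3 and the peach cinnamoyl-CoA reductase in 1. Just inside the bound of 2-fold, the authors' deposited table gave the cherry cinnamoyl-CoA reductase a fold of 2.03 for Xiyeqing against Zhenkui. Just outside it, in the same pair, the deposited log2 values gave the peach probe a fold of 2.00 after rounding, and it was not listed. For chalcone synthase in Ruantiaohongmei against Xiyeqing, the authors' deposited table gave a fold of 141, lower than the 195 found here on the scanner signals.

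Patterns most like the phenylpropanoid probes were sought among 236 other tested probes that name a protein, by Pearson correlation of levels over the 8 arrays. These are descriptions, since the 8 arrays fall into 4 cultivars and the split between them enters each value. For chalcone synthase that split is Ruantiaohongmei against the others, and for the other probes mainly that between species. For chalcone synthase the nearest were inosine-5'-monophosphate dehydrogenase (AF068844.1, 0.99), a calreticulin-like sequence (EY458122.1, 0.95) and the heat shock protein HSP90 (EF640665.1, 0.88). The first of these had levels of -3.86 and -3.70 in Ruantiaohongmei and 2.45 and 2.50 in Xiyeqing, against 3.06 and 3.23 in Manao and 3.22 and 3.51 in Zhenkui, the same split as chalcone synthase. By Spearman's rank measure AF068844.1 was not among the 3 nearest, and the calreticulin-like sequence came first (0.90).

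Both PAL probes had the auxin-binding protein ABP20 (U81162.1) as their nearest, at 0.98 for EF031063.1 and 0.97 for PAL1. ABP20 had levels of -2.68 and -0.36 in Ruantiaohongmei and -0.34 and -1.05 in Xiyeqing, against 0.75 and 1.81 in Manao and 1.77 and 3.82 in Zhenkui. It repeated the PAL gaps between replicates in Ruantiaohongmei, Manao and Zhenkui, with replicate 2 higher in each. For the cherry cinnamoyl-CoA reductase the 3 nearest were all polygalacturonase-inhibiting proteins (AY903219.1, AY903225.1 and AY883417.1, each 0.99). In Xiyeqing these too were higher on replicate 2, with AY903225.1 at 1.67 on replicate 1 and 4.20 on replicate 2. The 3 ran nearly in parallel over the arrays, so they are not separate observations if they bind the same transcript. Correlations over 0.95 with the cherry cinnamoyl-CoA reductase were reached by 103 of 9120 tested probes. The counts were 88 for EF031063.1, 37 for PAL1 and 14 for chalcone synthase.

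Around the route, 14 further tested probes matched a word list of neighbouring steps, regulators and modifying enzymes. Of the 14, 5 were called higher and 8 lower in P. mume and 1 was not called, while 15.1% of all tested probes were called higher and 21.6% lower. Their median was -1.09, against -0.11 over all tested probes. Among them 3 matched by word alone: a beta-amylase (AF139501.1, 2.01), a phosphoethanolamine N-methyltransferase-like sequence (EY458092.1, -3.36) and a DNA cytosine methyltransferase (AY128652.1, -1.31). The call of AY128652.1 (adjusted p = 0.0491) was lost with normexp background correction, where its difference was -0.60, without a filter on dim probes, and without any 1 Ruantiaohongmei, Xiyeqing or Zhenkui array, with 0.142 as the highest adjusted p. Of the 11 others, 4 were higher, 6 lower and 1 not called. All come from the authors' lists of 2-fold differences, so their directions are not independent evidence. Between the cultivars of a species 0 of the 14 were called, where all tested probes had 0.592% for Ruantiaohongmei against Xiyeqing and 0% for Manao against Zhenkui.

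Entry to the pathway was represented by chorismate mutase (AJ004916.1), which turns chorismate towards phenylalanine and tyrosine. It stood at 2.29 and 2.34 in Ruantiaohongmei and 2.54 and 2.84 in Xiyeqing, against 3.27 and 3.34 in Manao and 3.77 and 3.80 in Zhenkui. Its arrays did not overlap, and the difference of -1.04 ± 0.20 (SE) was called; like both PAL probes, it was lower in P. mume. Outside the rule of largest differences, further probes were named after their values had been seen. They are this gene, the polyphenol oxidases, the secretory peroxidase AY962824.1, the DNA cytosine methyltransferase AY128652.1 and MYB185 (EF640705.1).

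Methyltransferases went both ways. An O-methyltransferase-like protein of P. mume (OMT1, GU339212.1) stood at 1.57 and 0.69 in Ruantiaohongmei and 1.17 and 1.12 in Xiyeqing, against -1.95 and -2.43 in Manao and -2.08 and -2.46 in Zhenkui, a difference of 3.36 ± 0.23 (SE). A P. armeniaca methyltransferase of unstated substrate (U82011.1) stood at -2.79 and -2.10 in Ruantiaohongmei and -1.82 and -2.62 in Xiyeqing, against 1.85 and 2.63 in Manao and 0.49 and 1.00 in Zhenkui, a difference of -3.82 ± 0.45. Each was higher in the species from which its sequence came, and neither overlapped between species. Other P. armeniaca sequences of the wider list went both ways. The beta-amylase AF139501.1 (2.01) and the secretory peroxidase AY962824.1 (1.15, not called) were higher in P. mume, and the polyphenol oxidase AF020786.1 (-1.15) was lower. Whether the match of a probe to the other species moved with these differences was not tested.

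Class III peroxidases, some of which polymerise lignin in the wall, were higher in P. mume. EF640707.1 averaged 1.05 ± 0.63 in P. mume and -1.37 ± 0.95 in P. armeniaca (SD, n = 4 each), with no overlap. EF640699.1 averaged 0.57 ± 1.51 in P. mume and -1.88 ± 0.65 in P. armeniaca, and overlapped through Xiyeqing replicate 1 at -1.32. Its call was lost when either Ruantiaohongmei array or Xiyeqing replicate 2 was left out (highest adjusted p = 0.0844). A secretory peroxidase (AY962824.1) differed by 1.15 ± 0.41 (SE) and was not called, with an adjusted p of 0.0503, but it was called in 8 of 13 other settings with every array.

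MYB factors, some of which regulate flavonoid and lignin genes, were mixed. The putative almond factor MYB185 (EF640705.1) was lower in P. mume by -1.59 ± 0.34 (SE), with no overlap. It averaged 5.36 ± 0.61 in P. mume and 6.95 ± 0.48 in P. armeniaca (SD, n = 4 each). Its call held in all 13 other settings with every array and in all 8 with 1 array left out. The peach factor pkMYB1 (FJ860134.1) was lower in P. mume by -1.97 ± 0.63 (SE), at -2.21 ± 0.32 in P. mume and -0.24 ± 1.39 in P. armeniaca (SD, n = 4 each). The call was lost with normexp background correction (adjusted p = 0.0512) and without any 1 P. mume array (up to 0.0984). The peach factor pkMYB2 (FJ860135.1) had levels of -1.11 and -2.52 in Ruantiaohongmei and -2.83 and -3.03 in Xiyeqing, against -4.32 and -5.25 in Manao. It was not well above background on either Zhenkui array, so its level there is only a bound. The difference between species was called, but its size of 3.64 as scaled includes those 2 arrays and is not exact, and it was 1.24 with normexp background correction. The polyphenol oxidases AF020786.1 and AY865623.2, which oxidise phenolics when tissue browns, were lower by -1.15 ± 0.27 and -1.14 ± 0.27. Their values ran almost identically over the arrays, so the 2 probes are not separate observations if they bind the same transcript.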

How the data were processed

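Per the file headers, Agilent Feature Extraction 10.7.1.1 made the deposited intensity values (background-subtracted and detrended processed signals); version 8.1 stands in the submitters' processing notes. Log2 values deposited by the authors have 1 value per probe, with a normalization not given in the sources used here. Comparison tables by the authors were also deposited, and their fold (ratio) lists hold probes of at least 2-fold, a bound inferred from the values. Here, log2 of the processed signal minus each array's 75th percentile over non-control probes was used, without control or outlier-marked spots. A probe was tested if some cultivar had it well above background on both of its arrays, as 9125 of 10384 did. Limma 3.58.1 (R 4.3.3) was fitted for the species with a random cultivar block, whose consensus correlation was 0.0781, and for pairs of cultivars as contrasts of the 4 means with 1 shared estimate of the spread. A call was a Benjamini-Hochberg adjusted p under 0.05. The species fit was tested on simulated data with independent noise and no cultivar effect. The contrasts of cultivars were not tested in this way.

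Members and lists were chosen with earlier results of these data known. By its rule the wider list named up to 8 probes with the largest species difference, and its other named probes were added later. Likeness named the 3 most correlated described proteins for the 4 probes that the selection lists by name. The contrast between slide rows, the gaps between replicates, the division of the sum of squares and the ordering by gap in 1 cultivar were added after the data had been seen. Alternatives were normexp background correction (offset 50, on median signals because the files hold no mean signal), quantile and median scaling, the authors' log2 values, both filters, trend and robust moderation, blocks for slide row, slide column and replicate number, no block, cultivar means, outlier-marked spots kept, Spearman likeness and each array left out. The number of arrays limits the precision. Gene names are those of the deposited descriptions, and probe sequences were not used here.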

Additional observations from a re-analysis of the deposited data

Results flagged for a closer look

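Chalcone synthase (DQ856583.1) differed between the 2 pairs of cultivars that lie in 1 slide row each. Ruantiaohongmei minus Manao less Xiyeqing minus Zhenkui was -6.83 ± 0.66 (SE), made of -7.26 in slide row 1 and -0.43 in slide row 2. Limma called this contrast (adjusted p = 0.0126), and it stayed called in all 10 other settings with every array, between -6.98 and -5.31. With 1 array left out it ran from -7.61 to -6.05, and the call was lost without Manao replicate 2, either Xiyeqing array or either Zhenkui array (adjusted p up to 0.0974). In this contrast the slide row cannot be told apart from the cultivars it holds.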

How the results depend on the processing

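No difference of the 6 probes that was called with all arrays in the main setting changed sign in any setting run. Sign changes came in 10 cases of differences not called there, 9 of them with 1 array left out. Of the counts of calls, the 54 probes called for Ruantiaohongmei against Xiyeqing were 28 with normexp background correction and 9 among probes well above background on all 8 arrays (fewer probes tested), and 23 to 57 with 1 array left out. With 1 array left out, Ruantiaohongmei against Manao gave 562 to 2097 calls over all probes and 1 to 3 among the 6 phenylpropanoid probes, and Xiyeqing against Zhenkui 1278 to 2679 and 0 to 3. The causes were not tested, beyond fewer samples. Normexp moved the median species difference of all probes from -0.11 to 0.05, and for Ruantiaohongmei against Manao the share of calls that were higher from 40.3% to 52.7%. Replicate numbers were not taken to pair the samples: deviations of same-numbered arrays correlated at -0.18 to 0.39 between cultivars, over 0.1 in 4 of 6 cultivar pairs but not in all. With the replicate block, 3093 probes and 3 of the 6 were called between species, 1995 and 3 for Ruantiaohongmei against Manao, 2486 and 2 for Xiyeqing against Zhenkui, 47 and 1 for Ruantiaohongmei against Xiyeqing, and 0 and 0 for Manao against Zhenkui. Under that block EF031063.1 was called for Ruantiaohongmei against Manao (adjusted p = 0.0395) and AF298828.1 was not for Xiyeqing against Zhenkui (0.0641). On cultivar means, 2 against 2, 2356 probes and 3 of the 6 were called. With Spearman's measure 1 of the 3 nearest genes of chalcone synthase remained, without inosine-5'-monophosphate dehydrogenase, 2 for EF031063.1, 1 for PAL1 and 1 for the cherry cinnamoyl-CoA reductase. Dim signals limit chalcone synthase in Ruantiaohongmei, where the size of the difference depends on the background correction.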
